A study of Mus musculus with 4 samples.

Results

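Tetraspanins were followed as a family in alveolar macrophages, the phagocytes that live on the airway side of the lung. The set holds 10 genes, Cd9, Cd37, Cd53, Cd63, Cd81, Cd82, Cd151, Tspan3, Tspan4 and Tspan31, out of 7280 genes with counts. They were taken by gene symbol, and their 48 listed tags, of which 38 had a count in at least 1 library, were read singly and summed per gene. Cd63 heads the set because of its difference between the groups in these same libraries, and its relatives were added by family with those results known. The values of Cd63 between the groups are therefore a description and carry no test.

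The tested cells, labelled Day 21 AM, came from BALB/c mice that had received BNL, a mouse hepatocellular carcinoma cell line, intravenously 21 days earlier and had lung metastases. The comparison cells, labelled Pre AM, were from BALB/c mice with neither treatment nor lung metastasis. Each group had 2 SAGE libraries (serial analysis of gene expression), where a short tag beside an NlaIII site stands for a transcript. Untreated mice are not described as having had a control injection, so the injection and the metastases cannot be told apart. Ages, sexes and the number of mice behind a library are not given, and p-values therefore describe the spread between libraries, which may be technical.

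Tetraspanins are small proteins that cross the membrane several times and gather other membrane proteins, such as integrins, proteases and immune receptors, into patches called tetraspanin-enriched microdomains. Some, such as Cd9, Cd81 and Cd151, sit mostly at the cell surface. Cd63 cycles through the surface to late endosomes and lysosomes, guided by a tyrosine-based signal in its tail that clathrin adaptor complexes read, and it is packed into the vesicles released as exosomes. Cd37 and Cd53 are largely restricted to blood cells.

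The libraries held 1783814 and 1630776 tags for Day 21 AM 1 and 2, and 1962569 and 2198563 tags for Pre AM 1 and 2. Counts of 1 are absent from all 4 libraries, so a tag listed at 0 may have been read once. Of 8 markers of alveolar macrophages, 7 had counts, among them Chil3, Ear2, Itgax, Siglecf and Pparg. Fabp4 was listed at 0 in all 4 libraries and Marco had 0 and 0 counts in Day 21 AM against 2 and 0 counts in Pre AM. Levels are given as CPM, tag counts brought to a common library size with TMM scaling factors. Since SAGE counts a transcript by a tag and not along its length, CPM of different genes are set side by side without a length correction, although the yield of a tag can differ between genes.

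The tags printed here show what was counted for each gene. CATG in capitals is the NlaIII site, and the 21 bases in lower case are the counted tag, written 5′ to 3′ on the transcript strand. Cd63 had 6 tags, listed in order along its GENCODE M21 transcript (GRCm38), which runs on the plus strand of chromosome 10.
Cd63 exon 2, chr10:128910405-128910429: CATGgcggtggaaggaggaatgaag
Cd63 exon 3, chr10:128911518-128911542: CATGagactactgctggctcgctgt
Cd63 exons 3 and 4, chr10:128911631-128911809: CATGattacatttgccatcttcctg
Cd63 exon 4, chr10:128911818-128911842: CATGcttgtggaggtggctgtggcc
Cd63 exon 6, chr10:128912211-128912235: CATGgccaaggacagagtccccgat
Cd63 exon 8, chr10:128912764-128912788: CATGgagtggattctccaggttttt

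In the exon 2 tag of Cd63 the ATG of the NlaIII site is the start codon, the next 4 tags lie in the coding sequence, and the exon 8 tag lies in the 3' UTR at the last NlaIII site of the transcript. The tag on exons 3 and 4 spans a splice junction. The exon 3 and exon 8 tags matched Cd63 alone, while the other 4 also matched the pseudogene Cd63-ps.

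The most abundant tag of each relative with more than a few counts is printed for comparison with those of Cd63.
Cd9 exons 3 and 4, chr6:125463748-125464402, minus strand: CATGctgggattgttcttcgggttc
Tspan31 exon 5, chr10:127068336-127068360, minus strand: CATGccagatgtgtggggagaggtt
Cd82 exon 9, chr2:93420294-93420318, minus strand: CATGgagaaggcgcaggcgtggctt
Cd53 exon 8, chr3:106760613-106760637, minus strand: CATGgacttcccatatcaagcagaa
Cd151 exon 7, chr7:141471382-141471406, plus strand: CATGgctgttttcatctcactgctg
Cd81 exon 2, chr7:143062535-143062559, plus strand: CATGatccacagaccaccagcctgc
Cd37 exon 3, chr7:45237199-45237223, minus strand: CATGgccctggctctcctgggctgt
Tspan4 exon 3, chr7:141489680-141489704, plus strand: CATGgccatcggcttcgtgggctgc

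The Cd53 and Cd151 tags lie in the 3' UTR and the other 6 in the coding sequence, with the Cd9 tag across the junction of exons 3 and 4. Tags of different genes of the set were well separated: the closest pair, a Cd81 tag and the last-site tag of Cd9, differed at 5 of 21 bases. Of the 48 tags, 43 matched 1 gene, and the exceptions were the 4 Cd63 tags and 1 Cd9 tag shared with the pseudogene Cd9-ps. Cd151 and Tspan4 are neighbours on chromosome 7, Cd151 at 141467362 to 141471481 and Tspan4 at 141475236 to 141493427, and Cd81 lies farther along it at 143052750 to 143067930 (GRCm38.p6).

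Cd63 was near the bottom of the family in Pre AM and second in it in Day 21 AM. It had 715 and 852 counts in Day 21 AM 1 and 2, against 18 and 27 counts in Pre AM 1 and 2, which gave 408.1 and 607.1 CPM against 8.83 and 11.0 CPM. Both Day 21 AM libraries lay far above both Pre AM libraries, and the lower Day 21 AM value was 37.0 times the higher Pre AM value. The mean was 507.6 ± 140.7 CPM in Day 21 AM and 9.94 ± 1.56 CPM in Pre AM (SD, n = 2 each), a 51.1-fold difference, or a log2 change of 5.66 ± 0.73 (SE). CPM are relative to the whole library, so a change in the number of cells of a type and a change in RNA per cell cannot be told apart.

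Of the 7 relatives with enough counts to test, 6 overlapped between the groups and Cd151 did not, while 31.2% of all tested genes did not overlap. Cd9, a surface tetraspanin of adhesion and cell fusion, was the most abundant in every library, with 1160 and 1406 CPM in Day 21 AM against 1102 and 1864 CPM in Pre AM. By mean level in Day 21 AM the order was Cd9, Cd63, Cd82, Tspan31 and Cd53, then Cd81, Cd37, Cd151, Tspan4 and Tspan3. In Pre AM it was Cd9, Tspan31, Cd82 and Cd53, then Cd151, Cd81, Cd37, Cd63, Tspan3 and Tspan4. For Cd81 no tag at the last NlaIII site of its transcript was listed, so its level rests on tags of earlier sites alone. Whether this lowers its place in either order was not tested. Neighbours in the Day 21 AM order whose libraries overlapped in level were Cd63 with Cd82, Cd82 with Tspan31, Tspan31 with Cd53, Cd81 with Cd37, and Cd37 with Cd151. Both Cd63 libraries there lay above both libraries of Tspan31 and of Cd53. In Pre AM the overlapping neighbours were Tspan31 with Cd82, Cd82 with Cd53, and Cd151 with Cd81, and both Cd63 libraries lay below both of Cd37.

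**Figure D1:**
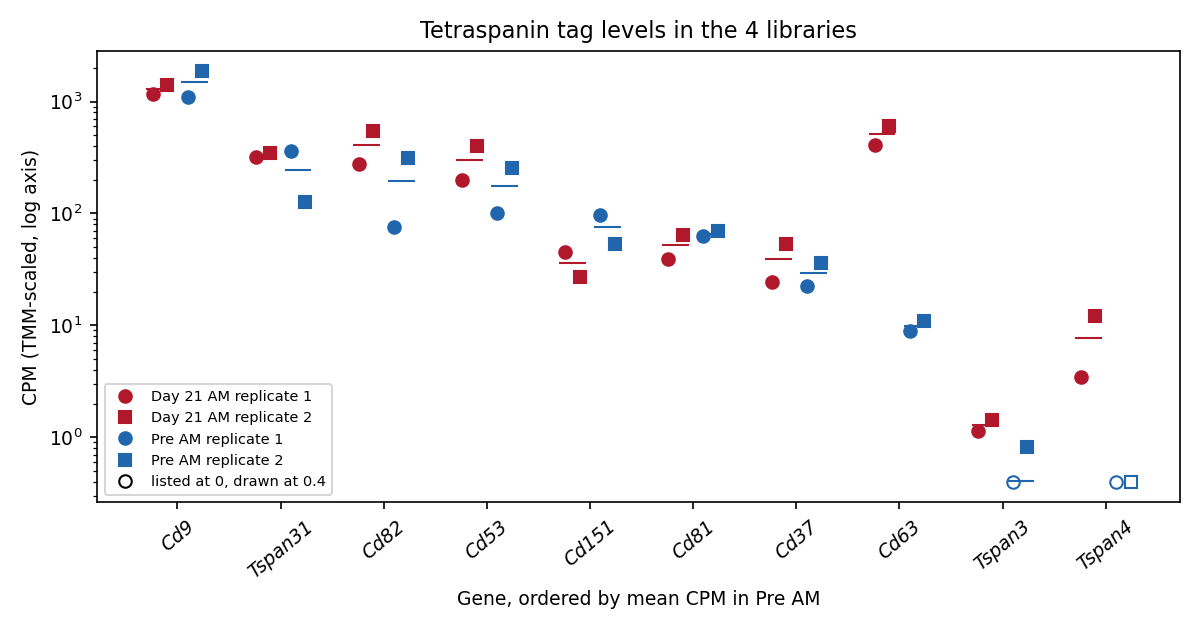
CPM of the 10 tetraspanin genes (log axis) in each library, with Day 21 AM in red left of Pre AM in blue, circles for replicate 1, squares for replicate 2, lines at the group means and open symbols for libraries listed at 0. Cd63 stands at 408.1 and 607.1 CPM in Day 21 AM and at 8.83 and 11.0 CPM in Pre AM, while Cd9, Tspan31, Cd82, Cd53, Cd81 and Cd37 overlap between the groups.

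The same counts can be read as shares within each library, which need no scaling between libraries and are no independent evidence. Cd63 made up 16.5% of the counts of the 10 genes in Day 21 AM 1 and 17.5% in Day 21 AM 2, with exact Clopper-Pearson 95% intervals of 15.4% to 17.7% and 16.5% to 18.6%. Its share was 0.483% in Pre AM 1 and 0.405% in Pre AM 2, with intervals of 0.286% to 0.762% and 0.267% to 0.589%. These intervals cover counting error only, because PCR copies were not told apart. The relatives together had 5.05 and 4.70 counts for each Cd63 count in Day 21 AM, against 206.1 and 246.0 in Pre AM. The log2 ratio of Cd63 to its summed relatives averaged -2.29 ± 0.07 in Day 21 AM and -7.81 ± 0.18 in Pre AM (SD, n = 2 each), a difference of 5.53. With 2 libraries against 2, an exact permutation test cannot go below a two-sided p of 0.33.

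Against Cd9 alone, Cd63 counts came to 35.2% and 43.2% of those of Cd9 in Day 21 AM and to 0.802% and 0.592% in Pre AM. The relatives as a sum were at 2062 and 2855 CPM in Day 21 AM against 1821 and 2715 CPM in Pre AM, so their ranges overlapped. The 10 genes together held 0.243% and 0.298% of all tags in Day 21 AM, against 0.190% and 0.303% in Pre AM.

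**Figure D2:**
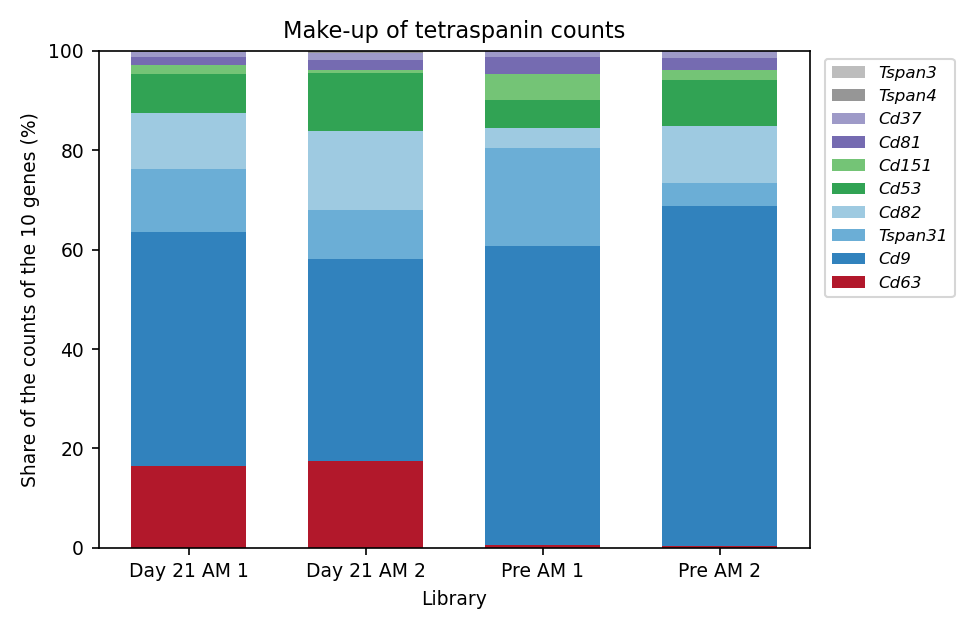
Share of the counts of the 10 genes (%) taken by each gene in each library, stacked to 100%. Cd63, the red segment at the base, takes 16.5% and 17.5% in the Day 21 AM libraries and 0.483% and 0.405% in the Pre AM libraries, and Cd9 takes 47.0% and 40.6% against 60.2% and 68.4%.

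All 6 Cd63 tags had more listed counts in both Day 21 AM libraries than in both Pre AM libraries, and 4 of them were tested. For the tag of fewest counts a higher level is not established, because its counts do not exceed the floor given below. The tags come from the libraries in which Cd63 was chosen, so they are no independent evidence. The share of all tags that lay apart in this way is not given here. The exon 8 tag had 311 and 215 counts in Day 21 AM against 14 and 14 in Pre AM, a 26.3-fold difference in CPM. The exon 6 tag had 245 and 401 counts against 4 and 8, an 81.3-fold difference. The start-codon tag of exon 2 had 123 and 163 counts in Day 21 AM, against 0 and 5 in Pre AM.

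The exon 3 tag, which belongs to Cd63 alone, had 26 and 55 counts in Day 21 AM and was listed at 0 in both Pre AM libraries. A tag listed at 0 may have an expected count of up to 4.74, the most that leaves it at 0 or 1 reads with a chance of 5%. With that floor in each Pre AM library, the floor averaged 2.13 CPM. The mean of the exon 3 tag in Day 21 AM, 27.0 CPM, was 12.7 times this. Its 2 Day 21 AM libraries were far apart, at 14.8 and 39.2 CPM. The 2 tags of fewest counts, on exons 3 and 4 and on exon 4, had 3 and 4 counts and 7 and 14 counts in Day 21 AM and were listed at 0 in Pre AM. The 3 and 4 counts do not exceed the floor. The 2 tags that match no pseudogene summed to 192.3 and 192.4 CPM in Day 21 AM against 6.87 and 5.72 CPM in Pre AM, a 30.5-fold difference. That is smaller than the 51.1-fold over all 6 tags, of which 4 are shared with Cd63-ps.

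**Figure D3:**
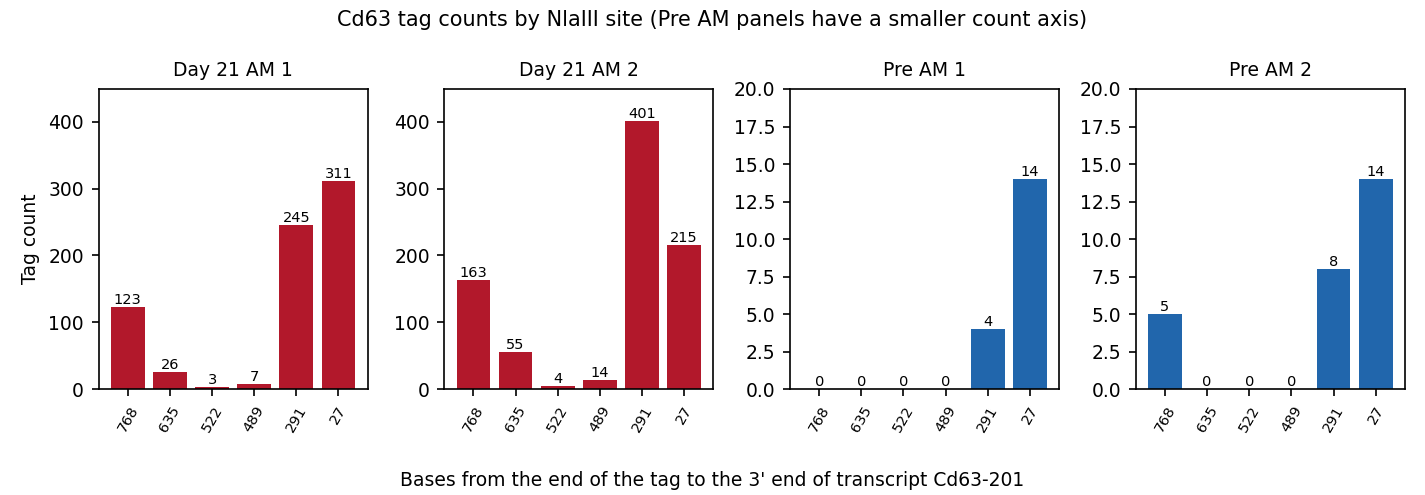
Cd63 tag counts per NlaIII site in each library, ordered along the transcript by the number of bases from the tag to the transcript's 3' end. The Day 21 AM panels (red) reach 401 counts and the Pre AM panels (blue), drawn on a smaller count axis, reach 14 counts.

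Among 8 members with enough counts for the fit over 2993 genes, 1 member (Cd63) was higher in Day 21 AM and 0 were lower at an adjusted p under 0.05. Over all genes tested, 0.668% were called higher and 0.0668% lower (edgeR quasi-likelihood test, Benjamini-Hochberg adjustment), and the call of Cd63 is the value it was chosen on. Without Pre AM replicate 1, 0 of all genes passed in edgeR (137 had an unadjusted p under 0.05), and Cd63 had a log2 change of 5.52 there. Both groups were apart, with Day 21 AM higher, in 15.2% of all tested genes, which include Cd63. For the 7 tested relatives the adjusted p was 0.998 each, and the smallest unadjusted p was 0.117 (Cd82). Their log2 changes ran from -1.05 to 1.08 with a median of 0.40, while all tested genes had a median of -0.07 and quartiles of -0.53 and 0.38. A p that misses the threshold does not show that the groups were alike.

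**Figure D4:**
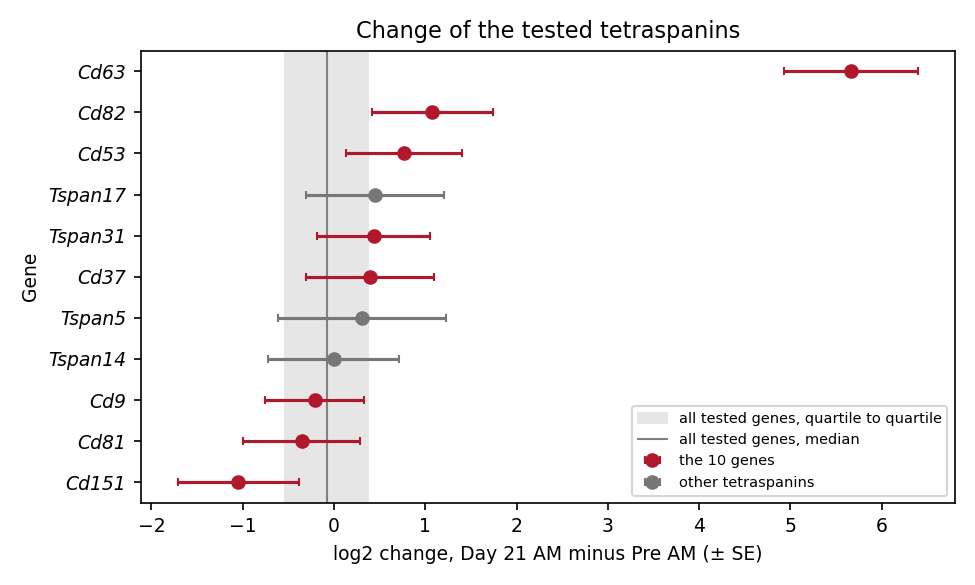
Log2 change of the 11 tested tetraspanins, Day 21 AM minus Pre AM, with bars of 1 SE, the 8 tested members in red and 3 other tetraspanins in grey. The grey band spans the quartiles of all tested genes (-0.53 to 0.38). Cd63 stands at 5.66, and the others lie between -1.05 and 1.08.

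Single tags of the relatives were tested over 3907 tags, of which 0.358% were called higher and 0% lower. Of their 14 tested tags, 9 had a positive log2 change, and 0 passed in edgeR, with 0 at an unadjusted p under 0.05. The positive ones included the main tags of Cd82 (1.10 ± 0.72), Cd53 (0.82 ± 0.68), Cd37 (0.56 ± 0.73) and Tspan31 (0.36 ± 0.67), and the negative ones those of Cd151 (-1.06 ± 0.71) and Cd81 (-0.11 ± 0.69). The 3' UTR tag of Cd82 had 17 and 9 counts in Day 21 AM against 11 and 8 in Pre AM. The start-codon tag of Cd9 had 5 and 15 counts against 20 and 57, and the Cd9 tag shared with Cd9-ps had 127 and 148 counts against 98 and 310. In Cd151, Cd82 and Tspan31 the main tag held 98.4%, 97.4% and 98.2% of the gene's counts, so these genes rest on 1 tag, while the main tag of Cd53 held 42.5%. Every other counted tag of a relative, apart from the main tags and those of Cd53 on exons 3 and 8, Cd81 in the 3' UTR and Cd9 at the last site, had at most 16 counts in any library.

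Among the surface tetraspanins, Cd151, the partner of laminin-binding integrins, was lower in both Day 21 AM libraries, with 45.1 and 27.1 CPM against 96.2 and 53.6 CPM in Pre AM. Its groups did not overlap, as was so for 31.2% of all tested genes in either direction and for 16.0% in the lower direction, and its log2 change of -1.05 ± 0.66 (SE) did not pass (edgeR adjusted p = 0.998). Cd9 averaged 1283 ± 174 CPM in Day 21 AM and 1483 ± 539 CPM in Pre AM (SD, n = 2 each), with a log2 change of -0.21 ± 0.54. Its sign turned to 0.25 without Pre AM replicate 2. Cd81, a widely expressed surface tetraspanin that binds integrins and immunoglobulin-like proteins, had 39.4 and 64.1 CPM in Day 21 AM against 62.8 and 69.1 CPM in Pre AM, with a log2 change of -0.35 ± 0.64 that was 0.017 without Day 21 AM replicate 1.

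Cd82, a tetraspanin of the surface and endosomes studied as a suppressor of tumour cell spread, had 275.1 and 543.7 CPM in Day 21 AM against 75.1 and 312.4 CPM in Pre AM. The Pre AM libraries differed from each other by 4.16-fold, more than the 2.11-fold between the group means, and the log2 change was 1.08 ± 0.66. Leaving out 1 library moved it between 0.40 and 2.48, the highest without Pre AM replicate 2. Cd53, a blood cell tetraspanin, had 197.5 and 404.0 CPM in Day 21 AM against 101.1 and 252.7 CPM in Pre AM, with a log2 change of 0.76 ± 0.63. It was 0.19 without Pre AM replicate 1 and 1.60 without Pre AM replicate 2. Cd37, the other blood cell member, which binds the fungal receptor dectin-1, had 24.5 and 53.4 CPM against 22.6 and 36.4 CPM, with a log2 change of 0.40 ± 0.70. Its sign turned to -0.23 without Day 21 AM replicate 2.

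Cd82, Cd53 and Cd37 ordered the 4 libraries in the same way, from Pre AM 1 through Day 21 AM 1 and Pre AM 2 to Day 21 AM 2. Chil3, an abundant secreted protein of alveolar macrophages, had the same order with 1047 and 2777 CPM in Day 21 AM against 329.3 and 1194 CPM in Pre AM. Camp, a neutrophil granule peptide, did too, with 69.1 and 250.8 CPM against 9.32 and 140.2 CPM. So did Cd68, a macrophage lysosomal glycoprotein. Not all markers of alveolar macrophages moved like Chil3. Of the 6 tested, 2 had a positive log2 change, 0 passed in edgeR and the median was -0.32. Siglecf had 21.1 and 19.95 CPM in Day 21 AM against 27.5 and 37.2 CPM in Pre AM. Itgax had 36.5 and 50.6 CPM in Day 21 AM against 65.8 and 74.8 CPM in Pre AM. Both were lower in both Day 21 AM libraries, as were 16.0% of all tested genes. The 3 neutrophil markers with counts, Camp, S100a8 and S100a9, summed to 74.2 and 273.6 CPM in Day 21 AM against 9.32 and 153.7 CPM in Pre AM, and their part in the levels of these tetraspanins was not tested. In all, 6 of 8 tested members were higher in replicate 2 in both groups, and Cd151 was lower in replicate 2 in both. A shared direction was not limited to this set. Over all 2993 tested genes, deviations of same-numbered libraries from their group means correlated at 0.54. The share of all genes with the same library order or replicate direction is not given here.

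Tspan31, named for its amplification in sarcomas, was the second most abundant member by mean in Pre AM. It had 316.2 and 343.4 CPM in Day 21 AM, inside the range of 361.2 and 126.3 CPM in Pre AM. Its log2 change of 0.44 ± 0.62 became -0.10 without Pre AM replicate 2 and 1.39 without Pre AM replicate 1.

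Tspan4, which is known from the fibres and vesicles that migrating cells leave behind, was too low for the fit. It had 6 and 17 counts in Day 21 AM and was listed at 0 in both Pre AM libraries. Its 4 listed tags allow an expected count of up to 7.07 in a library listed at 0. The 6 counts of Day 21 AM 1 do not exceed that floor, so no fold is given. Tspan3 had 2 and 2 counts in Day 21 AM against 0 and 2 in Pre AM, under the same floor of 7.07 counts.

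Of 31 tetraspanin genes searched for, 23 were listed and 14 had counts, which added 4 to the 10 genes of the set. Tspan5, Tspan14 and Tspan17 belong to the subgroup that escorts the protease Adam10 out of the endoplasmic reticulum. Tspan14 had 17.1 and 19.95 CPM in Day 21 AM against 13.7 and 23.3 CPM in Pre AM, and Tspan17 had 11.4 and 11.4 CPM against 9.32 and 7.36 CPM. Tspan5 had 6.85 and 4.28 CPM against 5.40 and 3.68 CPM. None of these 3 passed (edgeR adjusted p = 0.998 each), with log2 changes of 0.31 for Tspan5, -0.0034 for Tspan14 and 0.45 for Tspan17. Tspan13 had 0 and 0 counts in Day 21 AM against 2 and 0 in Pre AM, and the other 9 listed genes, among them Tspan6, Tspan7, Tspan8, Tspan9, Tspan32 and Tspan33, were listed at 0 in all 4 libraries.

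Proteins that tetraspanins bind were read next. Of 14 partners, 7 were tested, 1 was higher (Mmp14), 0 were lower and 6 did not pass, beside 0.668% higher and 0.0668% lower over all tested genes. The median log2 change was -0.61 against -0.07 over all tested genes. Mmp14, a membrane-bound matrix metalloproteinase that associates with Cd63, had 277 and 142 counts in Day 21 AM against 3 and 2 in Pre AM (edgeR adjusted p = 3.95e-05). Its Pre AM counts lay under the minimum count of 10 of the filter on low counts. Mmp14 thus passed that filter, and reached the test, through Day 21 AM alone. Itgb1, the beta 1 integrin chain, had 118.1 and 120.4 CPM in Day 21 AM against 113.9 and 105.9 CPM in Pre AM. Igsf8, an immunoglobulin-like partner of Cd9 and Cd81, had 196.3 and 148.9 CPM against 76.1 and 130.8 CPM. Neither passed (edgeR adjusted p = 0.998 each).

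Clec7a, the gene of dectin-1, had 5.14 and 9.26 CPM in Day 21 AM against 26.5 and 49.5 CPM in Pre AM, with a log2 change of -2.40 ± 0.77 that did not pass (edgeR adjusted p = 0.255). Of the other partners, Itga3, Itga6, Ptgfrn, Cd36 and Timp1 were listed at 0 in all 4 libraries.

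Genes of the machinery that forms and releases the vesicles carrying Cd63 gave 0 calls in either direction among 12 tested genes in edgeR, while 1 gene (Hgs) was lower and 0 were higher by an unadjusted p under 0.05. Over all tested genes 2.14% were lower and 3.54% higher by that unadjusted p. DESeq2 also called 0 of the list. The median log2 change of this list was -0.49. Sdcbp (syntenin), an adaptor that binds the tail of Cd63, had 208.9 and 243.7 CPM in Day 21 AM against 108.5 and 186.9 CPM in Pre AM, with a log2 change of 0.61 ± 0.61. Vps25, a subunit of the ESCRT-II sorting complex, had 254.0 and 428.2 CPM against 198.8 and 219.6 CPM, with a log2 change of 0.70 ± 0.60. Both were higher in both Day 21 AM libraries, as were 15.2% of all tested genes, and neither passed (edgeR adjusted p = 0.998 each). Hgs, an early sorting subunit, had 2 and 0 counts in Day 21 AM against 11 and 12 in Pre AM, and Rab35, a small GTPase of recycling, had 3.42 and 4.99 CPM against 10.3 and 9.40 CPM. Their edgeR adjusted p were 0.785 and 0.998. In Day 21 AM both genes had counts under 10, the minimum count of the filter on low counts. Both thus passed that filter, and reached the test, through Pre AM alone. Hgs and Rab35 were lower in both Day 21 AM libraries, as were Pdcd6ip, Tsg101 and Rab11a of this list and 16.0% of all tested genes.

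Among membrane proteins of late endosomes and lysosomes, the compartments where Cd63 resides, 0 of 12 tested genes passed in edgeR in either direction, and DESeq2 called 0. By an unadjusted p under 0.05, 1 gene (Ctns) was lower and 0 were higher. Their median log2 change was 0.39. Lamp1, an abundant glycoprotein of the lysosomal membrane, had 14298 and 18707 CPM in Day 21 AM against 15068 and 7859 CPM in Pre AM, with a log2 change of 0.53 ± 0.48. Laptm5, a lysosomal protein of blood cells, had 35135 and 30096 CPM in Day 21 AM against 22052 and 24773 CPM in Pre AM. Its groups did not overlap, as was so for 31.2% of all tested genes. The log2 change of Laptm5 was 0.48 ± 0.44 (edgeR adjusted p = 0.998). Cd68, a macrophage lysosomal glycoprotein, had 336.2 and 834.4 CPM in Day 21 AM against 140.4 and 371.7 CPM in Pre AM (log2 change 1.19 ± 0.64, edgeR adjusted p = 0.947). Ctns, the cystine exporter, had 26.3 and 7.13 CPM against 87.4 and 20.9 CPM (log2 change -1.68 ± 0.79, edgeR adjusted p = 0.823), and passed without Pre AM replicate 2 (adjusted p = 0.0480).

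Subunits of the clathrin adaptors that read tyrosine-based tail signals also gave 0 calls among 7 tested genes in edgeR (0 at an unadjusted p under 0.05) and 0 in DESeq2, with a median log2 change of -0.38. Ap2m1, the subunit of AP-2 that binds such signals, had 1661 and 2113 CPM in Day 21 AM against 5762 and 1951 CPM in Pre AM, where 1 library stood above the other 3. Ap2s1, the small subunit of AP-2, had 504.5 and 894.2 CPM against 540.3 and 409.3 CPM. Ap1m1, of the AP-1 complex, had 9.13 and 3.56 CPM against 17.2 and 13.1 CPM. These lists of partners, vesicle machinery, lysosomal proteins and adaptors were drawn up with earlier results of these libraries known.

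**Figure D5:**
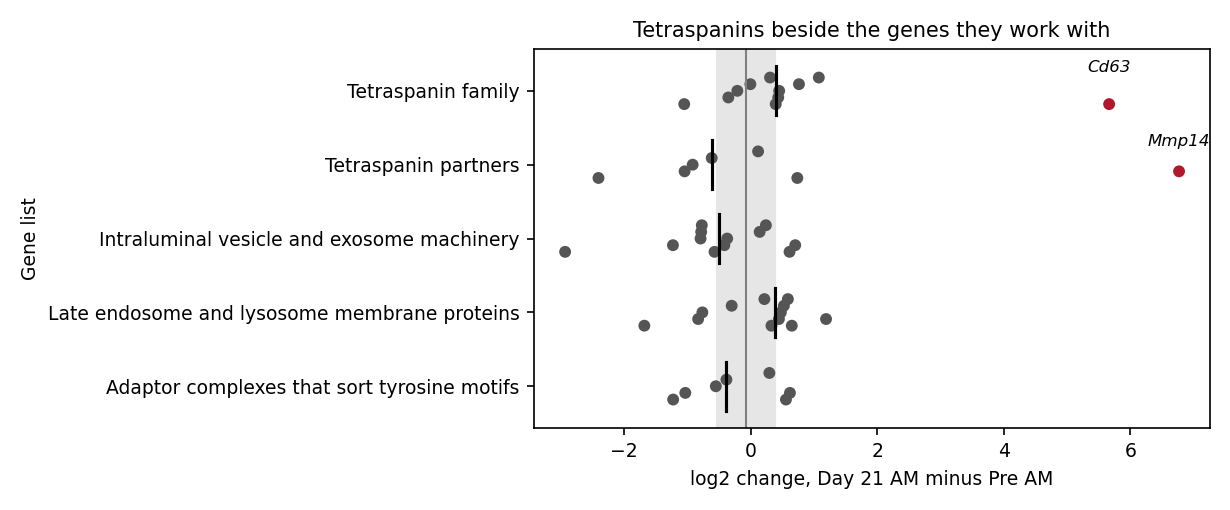
Log2 change, Day 21 AM minus Pre AM, of every tested gene in 5 lists, with a black line at each list's median, genes called by edgeR in red and all others in dark grey, and a band over the quartiles of all tested genes. Cd63 (5.66) and Mmp14 (6.77) are the called genes, and the medians run from -0.61 for partners to 0.40 for the family. Mmp14 passed the filter on low counts through Day 21 AM alone.

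Markers of other macrophages, and 1 platelet marker, moved with Cd63. Markers of monocyte-derived and interstitial macrophages summed to 2096 and 3088 CPM in Day 21 AM against 43.2 and 85.5 CPM in Pre AM. Of 8 such markers 7 had counts. Apoe and Ms4a7 were called higher in edgeR, as were 0.668% of all tested genes. C1qb and C1qc were called too, but with 0 counts in both Pre AM libraries they passed the filter on low counts through Day 21 AM alone. All these calls fell away without Pre AM replicate 1, as did that of Mmp14. Among the others, Ccr2 had 2 and 2 counts in Day 21 AM and was listed at 0 in both Pre AM libraries. The part of these cells in the levels of Cd63 and Mmp14 was not tested.

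Platelets also carry Cd63 and Cd9. Of 6 platelet markers Pf4 alone had counts, with 35 and 37 in Day 21 AM against 0 and 4 in Pre AM. It was called higher (edgeR adjusted p = 0.0172), but it too passed the filter on low counts through Day 21 AM alone. Itga2b, Gp1bb, Gp9 and Gp5 were listed at 0 in all 4 libraries. The part of platelets in the level of Cd63 was not tested. The listed markers of B cells, T and NK cells, mast cells and endothelium were at 0 in every library. Of the hepatocyte and hepatocellular carcinoma markers Afp was listed, with 0 and 0 counts in Day 21 AM against 0 and 3 in Pre AM. Markers of lung epithelium summed to 19.4 and 4.99 CPM in Day 21 AM against 53.5 and 29.0 CPM in Pre AM, almost all from Epcam.

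The 5 genes whose pattern over the 4 libraries was closest to that of Cd63 were C1qb, Apoe, C1qc, Fcgr2b and Mmp14. Likeness was the Euclidean distance of log2 CPM (prior count 2) centred on each gene's mean, over 4 libraries and 2834 tested genes, predicted genes (Gm, Rik and LOC names) left out. The distance was 0.808 for Apoe and 1.06 for Mmp14. For C1qb, C1qc and Fcgr2b, listed at 0 in Pre AM, it depends on the prior count, and so does their place among the 5 genes. For Mmp14, with 3 and 2 counts in Pre AM, the distance also depends in part on the prior count. The 5 genes are therefore given no order. The complement chain C1qb had 75 and 96 counts in Day 21 AM and was listed at 0 in both Pre AM libraries. C1qc had 125 and 71 counts, and Fcgr2b, the inhibitory Fc receptor, 38 and 40 counts, both also listed at 0 in Pre AM. The lipid carrier Apoe had 1733 and 2716 CPM in Day 21 AM against 28.5 and 78.5 CPM in Pre AM. With 4 libraries, genes that differ strongly between the groups are close to Cd63 by that difference alone.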

How the data were processed

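SAGE tags from 2 Day 21 AM and 2 Pre AM libraries were analysed. Values in the deposited tables are unnormalized tag counts, with a symbol and RefSeq accession per tag. Per the labels' protocols, cDNA on beads was cut with NlaIII and tags were released with EcoP15I, amplified by PCR and sequenced. The submitters' processing notes name mm9 as the build. How tags were matched to genes is not given in the sources used here. Tags were named by accession through a RefSeq table (GRCm38.p6) and summed per gene. For the 10 members, naming by accession and by deposited symbol gave the same 48 tags. Tetraspanin tags with CATG in front were matched to GENCODE M21 transcripts (GRCm38), the source of the coordinates printed.

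Groups were compared with edgeR 4.0.16 (R 4.3.3, quasi-likelihood test, TMM factors 0.864 to 1.12, filterByExpr with minimum count 10 and minimum total 15, group as the only term) over 2993 genes with Benjamini-Hochberg adjustment at 0.05. SEs were taken as the log2 change over the root of F. Floors for genes listed at 0 allow each listed tag 0 or 1 reads with a chance of 5%. Members and lists were chosen with earlier results of these data known. By rule the text names every member with its counted tags (tags of at most 16 counts in relatives are given as a range), every other tetraspanin with counts, the 2 most abundant tested genes and the 2 of smallest p of each list, and the 5 genes closest to Cd63. Genes named beyond that were chosen after their values were seen. On simulated counts for 2993 genes the test called 0% of 50 genes changed 2-fold, 14% at 4-fold, 40% at 8-fold and 84% at 16-fold. Within a group the libraries were further apart than counting error gives (chi-square over its degrees of freedom 44.1 for Day 21 AM and 59.4 for Pre AM), so each counted as 1 replicate. Alternatives tried were other scaling, no filter, DESeq2 1.42.0, a replicate block, 1 library left out, and other ways to sum tags. Some genes of the lists are not reported here.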

Additional observations from a re-analysis of the deposited data

How the results depend on the processing

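Over 12 alternatives, the log2 change of Cd63 stayed between 4.92 (tags that match 1 gene, chosen after seeing the data) and 6.28 (most abundant tag), and between 5.38 and 5.98 with 1 library left out. It missed the threshold without Pre AM replicate 1 (5.52, edgeR adjusted p = 0.0701). Members called higher numbered 2 with no filter, where Tspan4 joined (edgeR adjusted p = 0.00289). That call of Tspan4 rests on Pre AM libraries listed at 0, which may have an expected count of up to 7.07. The 6 counts of Tspan4 in Day 21 AM 1 do not exceed this floor. Of 96 recomputed log2 changes of members, 90 kept their direction and side of the threshold.

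Signs turned for 4 members, Cd9, Cd81, Cd37 and Tspan31, and for Tspan14, Tspan5 and Itgb1. With 1 library left out, log2 changes ran from -0.53 to 0.25 for Cd9, -0.71 to 0.017 for Cd81, -0.23 to 0.91 for Cd37, -0.10 to 1.39 for Tspan31, -0.33 to 0.45 for Tspan14 and -0.023 to 0.63 for Tspan5. With the most abundant tag, Cd9 was at 0.0046 and Tspan14 at 0.40. Tspan14 was also at 0.014 with RLE factors, 0.020 with no filter, 0.038 with the replicate block and 0.0028 with DESeq2. Itgb1 was at -0.11 with total counts alone. That scaling gave all genes a median log2 change of -0.29, against -0.07 with TMM. The cause was not tested.

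The within-library difference of Cd63 to its relatives was 5.53, 6.08 against the median relative, 6.001 with the most abundant tags, 4.81 with tags that match 1 gene, and 5.40 to 5.66 with 1 library left out.

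All genes called higher and lower numbered 20 and 2, 9 and 0 with total counts alone, 36 and 5 with no filter, 31 and 9 with the replicate block, 9 and 0 with the most abundant tag, 19 and 5 with DESeq2, and 0 to 63 and 0 to 18 with 1 library left out (both lowest without Pre AM replicate 1 and highest without Pre AM replicate 2). The replicate numbers are only shared names in the labels. Deviations of same-numbered libraries from their group means correlated at 0.54 over 2993 genes. With 2 libraries a group both numbers give the same value. Under that replicate block Cd63 had a log2 change of 5.65, and Clec7a passed (-2.38, edgeR adjusted p = 0.0475). Ctns passed without Pre AM replicate 2 (-2.35, edgeR adjusted p = 0.0480).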

Other observations

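For Cd63 the tag at the last NlaIII site held 43.5% and 25.2% of the gene's counts in Day 21 AM, against 77.8% and 51.9% in Pre AM, where exact Clopper-Pearson 95% intervals on 18 and 27 counts ran from 52.4% to 93.6% and from 32.0% to 71.3%. For Cd9 it held 32.1% and 26.4% in Day 21 AM against 38.2% and 39.4% in Pre AM, and for Cd53 17.1% and 18.9% against 34.5% and 24.8%. The share in Cd82 overlapped, with 3.53% and 1.18% against 7.19% and 1.05%, as did that in Tspan31, with 97.7% and 98.3% against 98.9% and 97.4%. In Cd151 it was higher in Day 21 AM, with 100% and 100% against 98.5% and 96.9%. These genes were singled out after their values were seen, the shares were not computed over all genes, and their difference was not tested.

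Tags of 1 gene gave different log2 changes. The last-site tag of Cd9 had -0.64 ± 0.57 (SE) and its most abundant tag 0.02 ± 0.55. For Cd53 the exon 3 tag had 1.20 ± 0.78 and the last-site tag 0.16 ± 0.70. For Cd81 the tag in exon 2 had -0.11 ± 0.69 and the most abundant one in the 3' UTR -1.16 ± 0.74. These tags belong to the 14 tested tags of relatives, 0 of which passed in edgeR or had an unadjusted p under 0.05.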
